A study of Mus musculus with 10 samples.

Results

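Antigen receptor gene segments are the pieces from which B and T lymphocytes build immunoglobulins and T cell receptors. A segment was taken as a member when the count table gave it an immunoglobulin or T cell receptor gene class other than pseudogene and it had a summed count of at least 10 over the 10 libraries. This left 264 of 494 segments, in a table of 55487 genes. By receptor, 187 were immunoglobulin and 77 T cell receptor segments. By class, 217 were variable (V), 27 joining (J), 19 constant (C) and 1 diversity (D). The summed count chose the members without regard to group, so a level over all libraries is part of the choice and is given as a description. At the limit, 24 members had 10 to 12 counts in all and 18 segments with 7 to 9 were left out; all left out segments together held 528 counts, against 238732 on the members.

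The tissue was mouse RPE/choroid complex, that is, the pigmented epithelium of the retina and the vascular layer under it. All 10 samples were from iDTR mice, a C57BL/6 line with a Cre-dependent diphtheria toxin receptor (HBEGF) at the ROSA26 locus, and all received diphtheria toxin (i.p). The 5 ADQ samples carried iDTR Adiponectin-Cre, in which the adiponectin promoter drives Cre in fat cells, and the series text names a daily dose over 7 weeks for the Cre carriers. The 5 control samples carried iDTR without Cre; their toxin period is not stated separately, and the age of the animals is not given in the sources used here. Whether each sample is its own animal is not given, so the p-values rest on sample-to-sample spread that could be technical.

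In each developing lymphocyte, recombination joins 1 V segment, in some chains a D segment, and 1 J segment into an exon that binds antigen, and splicing joins that exon to a constant region. Immunoglobulins pair a heavy chain (IGH) with a kappa (IGK) or lambda (IGL) light chain. B cells begin with the mu and delta constant regions (Ighm, Ighd) and can switch to gamma or alpha (Ighg, Igha), and plasma cells, which secrete antibody, hold immunoglobulin RNA at very high levels. T cell receptors pair alpha with beta chains (TRA, TRB) or gamma with delta chains (TRG, TRD). Because descendants of 1 lymphocyte share a V segment, a V segment can stand high in a single sample when its clone is large. In bulk tissue, fewer cells of a type and less RNA per cell cannot be told apart.

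Library totals ran from 43591245 to 64087660 counts, and the members took from 0.00803% (ADQ 5) to 0.144% (ADQ 1) of a library. Markers of the labelled tissue were present throughout: the RPE list (12 genes, Rpe65 among them) summed to 41906 to 58275 CPM in control and 35020.2 to 51203 in ADQ. CPM is the count per 1000000 counts of a library after TMM scaling, and fold changes are ADQ over control throughout. Libraries stood apart in both groups. ADQ 5 had the lowest immunoglobulin sum of all 10 libraries and also the lowest skeletal muscle sum (350.2 CPM against 1159.7 to 2735 in the other 9). The rod photoreceptor sum was highest in ADQ 5 (3414 CPM, against 303 to 2311 in the other 9). Control 5 had the highest alpha and beta chain sums of the controls, and a fat cell list sum of 29.4 CPM, where controls 1 to 4 had 92.4 to 192 and the ADQ libraries 31.6 to 56.3. Keratin genes of cornea and conjunctiva (7 genes) summed to 2.41 to 2142 CPM in control and 0.791 to 2.05 in ADQ. Markers of lacrimal and exocrine gland (8 genes) summed to 49.4 to 72.6 CPM in control and 49.5 to 59.1 in ADQ, with Prol1, Dcpp2 and Scgb2b20 at 0 counts in every library. Of the lymph node and follicle list, Ccl21a was at 0 throughout, and the sum was 7.76 to 12.3 CPM in control and 7.81 to 11.7 in ADQ. The part of these lists in the results that follow was not tested.

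The joining segments are shown first because they mark rearranged chains and are short enough to read whole. In a rearranged chain the J segment supplies a conserved phenylalanine (kappa) or tryptophan (heavy), followed by glycine, any residue and glycine. The coding sequences below are from GENCODE M21 on GRCm38, 5′ to 3′ on the coding strand. Capitals mark a match to TTCGG (phenylalanine, then the start of glycine) in the kappa set, which lies on the plus strand from chr6:70722562-70722599 (Igkj1) to chr6:70723886-70723923 (Igkj5).

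Igkj1: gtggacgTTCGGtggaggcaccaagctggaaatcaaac
Igkj2: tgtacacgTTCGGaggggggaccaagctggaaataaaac
Igkj3: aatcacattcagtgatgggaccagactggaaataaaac
Igkj4: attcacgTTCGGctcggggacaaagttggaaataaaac
Igkj5: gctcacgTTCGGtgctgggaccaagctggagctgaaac

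Igkj3 is the 1 kappa J without a match; it is known as a segment that functional kappa chains do not use. In the heavy set, on the minus strand from chr12:113429781-113429833 (Ighj1) to chr12:113428514-113428567 (Ighj4), capitals mark TGGGG (tryptophan, then the start of glycine).

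Ighj1: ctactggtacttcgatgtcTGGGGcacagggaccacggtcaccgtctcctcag
Ighj2: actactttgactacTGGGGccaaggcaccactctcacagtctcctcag
Ighj3: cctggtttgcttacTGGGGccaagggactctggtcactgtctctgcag
Ighj4: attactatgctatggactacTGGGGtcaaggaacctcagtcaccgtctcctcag

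All 4 heavy J segments hold that match. Both motifs were searched on the coding strand, which is fixed for these segments. Of 84 J segments with a coding sequence, of all chains, 19 (22.6%) hold the first motif and 15 (17.9%) the second, and 1 holds both. Motifs this short also occur by sequence composition, so a match is a description.

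The V segments below are the 3 that passed the test and Igkv1-135, whose RNA led in ADQ 5. The last 300 bases of each coding part are printed, with the leader intron spliced out where it falls within them. Capitals mark the last in-frame match to TANTNNTGT or TANTNNTGC. In the segments shown that match covers a tyrosine, a codon that starts with T, and the cysteine at the end of the framework. The whole coding part of Ighv1-39 lies at chr12:114914599-114915032 (minus strand), Igkv12-44 at chr6:69814631-69815100 (minus strand), Trbv2 at chr6:41047556-41047995 (plus strand) and Igkv1-135 at chr6:67609745-67610508 (plus strand).

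Ighv1-39: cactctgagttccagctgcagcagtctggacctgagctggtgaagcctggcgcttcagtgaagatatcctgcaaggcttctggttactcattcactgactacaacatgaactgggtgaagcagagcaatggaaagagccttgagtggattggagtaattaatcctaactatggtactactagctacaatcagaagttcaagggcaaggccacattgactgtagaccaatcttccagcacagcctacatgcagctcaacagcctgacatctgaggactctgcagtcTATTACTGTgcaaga
Igkv12-44: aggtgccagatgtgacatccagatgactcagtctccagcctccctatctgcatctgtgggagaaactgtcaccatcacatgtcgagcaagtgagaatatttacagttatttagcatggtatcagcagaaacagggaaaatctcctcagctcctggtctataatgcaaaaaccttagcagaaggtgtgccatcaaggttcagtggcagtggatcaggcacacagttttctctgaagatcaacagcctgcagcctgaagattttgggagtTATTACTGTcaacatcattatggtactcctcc
Trbv2: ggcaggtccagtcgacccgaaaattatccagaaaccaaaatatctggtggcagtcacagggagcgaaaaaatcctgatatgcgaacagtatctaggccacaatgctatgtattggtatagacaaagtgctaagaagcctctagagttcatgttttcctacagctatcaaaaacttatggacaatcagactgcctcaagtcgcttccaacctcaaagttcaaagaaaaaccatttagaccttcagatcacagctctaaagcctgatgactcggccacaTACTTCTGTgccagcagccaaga
Igkv1-135: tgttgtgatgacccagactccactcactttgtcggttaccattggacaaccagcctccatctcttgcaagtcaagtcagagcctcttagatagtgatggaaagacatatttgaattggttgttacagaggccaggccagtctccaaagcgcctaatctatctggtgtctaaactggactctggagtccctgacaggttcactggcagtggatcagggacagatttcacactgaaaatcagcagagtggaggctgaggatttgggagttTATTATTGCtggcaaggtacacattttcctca

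That pair of motifs occurs in frame in 319 of 366 V segments with a coding sequence (87.2%). Close relatives bear on how reads are divided between segments. The nearest relative of Ighv1-39 was Ighv1-19 (93.2% identity over the coding part), that of Igkv12-44 was Igkv12-41 (95.7%) and that of Igkv1-135 was Igkv1-133 (96.7%). Trbv2 had no close relative, its nearest being Trbv5 at 64.5%. How reads matching several segments were counted, and whether strand was used, is not given in the sources used here, so levels of single V segments with close relatives are uncertain.

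The comparison of ADQ with control asks how the lymphocyte receptor content of the RPE/choroid complex differed in mice built to lose fat cells. Most segments had higher levels in ADQ, but few passed the test. Ighv1-39, Igkv12-44 and Trbv2 rose, and no member fell. Of the 264 members, 70 passed the low-count filter and were tested (54 immunoglobulin, 16 T cell receptor). Those 3 are 3 of 70, where 0.74% of all 20684 genes tested were called higher, 0.087% lower and 0.827% in either direction (edgeR quasi-likelihood test, Benjamini-Hochberg adjusted p under 0.05). Unadjusted p was under 0.05 for 21 of 70 members, against 13.8% of all genes. The log2 fold change was above 0 for 63 members and below 0 for 7, against 51.8% above 0 over all genes, and its median was 1.70 for the members and 0.01 for all genes. The filter keeps segments that are high in either group. For 2 tested members, Ighv1-39 and Trbv2, no control library reached the filter level of 0.203 CPM. These 2 entered the test only through their ADQ levels, so their calls are not independent of the filter. Igkv12-44 reached that level in control 2 alone among the controls and in every ADQ library. Its call is therefore not independent of the filter either. The counts above describe the 70 and are not evidence on all 264. The count of 3 moved with the libraries: it was 0 without ADQ 2, 1 without control 4, 9 without control 5 and 13 without ADQ 5, and it was 8 with voom and quality weights and 23 with DESeq2. Segments of 1 chain are read from the same cells and transcripts and are not independent.

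**Figure D1:**
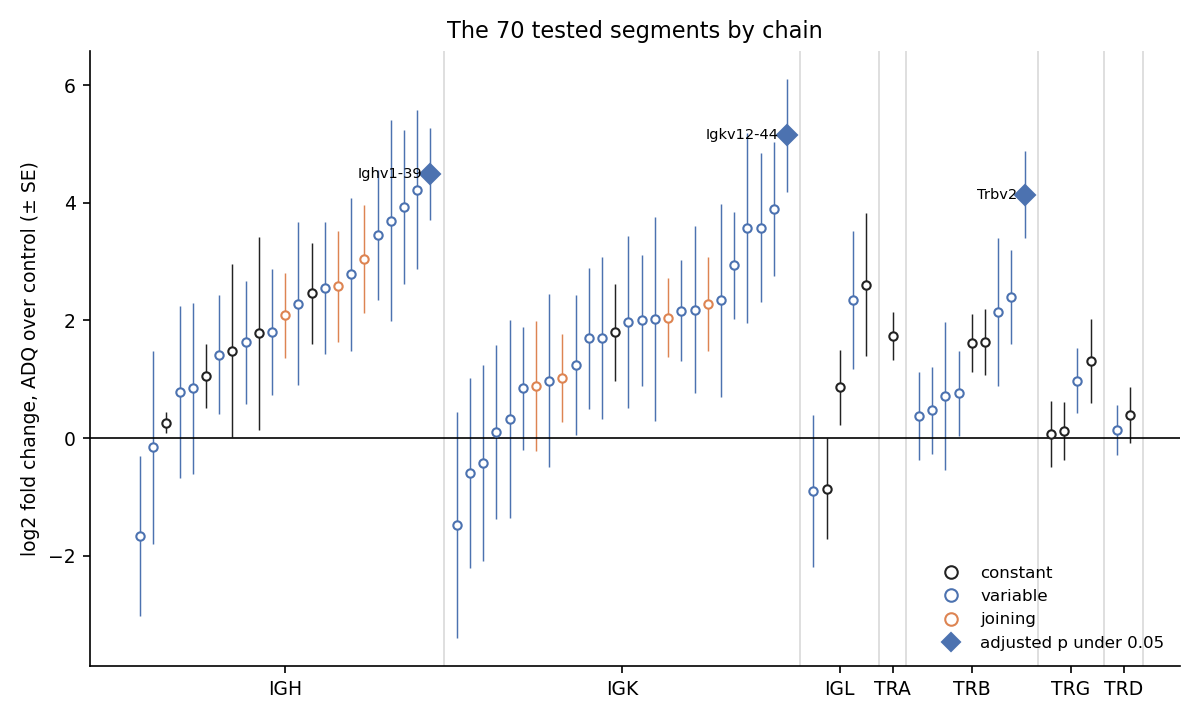
Log2 fold change (ADQ over control, vertical axis, with its standard error) of each of the 70 tested segments, grouped by chain and sorted within it; colour gives the class and filled diamonds an adjusted p under 0.05. Filled diamonds mark Ighv1-39, Igkv12-44 and Trbv2, and 63 of the 70 points lie above 0.

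Ighv1-39, a heavy chain V segment, had CPM values of 0, 0.0197, 0, 0.129 and 0 in controls 1 to 5, and of 1.13, 1.04, 0.496, 0.418 and 0.480 in ADQ 1 to 5. Every ADQ library lay above every control. The counts behind them were 0 to 6 in control and 19 to 53 in ADQ, and the log2 fold change was 4.48 (SE 0.78, n = 5 each, edgeR adjusted p = 0.0153). Its size depends on the near-absence of counts in control. No control reached the filter level, so the segment entered the test only through ADQ, and its non-overlap is a description.

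Trbv2, a beta chain V segment, was at 0.0917, 0, 0, 0.0431 and 0.0416 CPM in controls 1 to 5 and at 1.10, 1.06, 0.305, 0.461 and 0.279 in ADQ 1 to 5. Again the groups did not overlap, and control 5, which lay inside the ADQ range for the beta chain sum, was low here. This gave a log2 fold change of 4.14 (SE 0.74, n = 5 each, edgeR adjusted p = 0.0175). As with Ighv1-39, no control reached the filter level, so the non-overlap of Trbv2 is a description too. Trbv2 was not called when control 4 was left out (adjusted p = 0.0603) or ADQ 2 (0.0656), and Ighv1-39 was not called without ADQ 2 (0.0567).

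Igkv12-44, a kappa V segment, was at 0, 0.257, 0.0390, 0.0647 and 0.104 CPM in controls 1 to 5 and at 7.68, 3.83, 1.60, 3.87 and 0.263 in ADQ 1 to 5. ADQ 5 was only just above control 2 (17 against 13 counts), while the other ADQ libraries were far above all controls. Among the controls only control 2 reached the filter level, so this segment too entered the test through its ADQ levels. Its non-overlap is likewise a description. Its log2 fold change was 5.15 (SE 0.96, n = 5 each, edgeR adjusted p = 0.0410). This call was the least stable of the 3: it was lost when any of 8 of the 10 libraries was left out, all except control 2 and ADQ 5, with adjusted p up to 0.139 (without control 4). It was also lost with no low-count filter (adjusted p = 0.115), with voom and quality weights (0.128) and with the replicate number as a block (0.0639).

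Besides these 3, only Trac and Igkv1-135 among the tested members had all 5 ADQ libraries above all 5 controls, a pattern that 2.09% of all genes tested showed. At least 4 ADQ libraries were above all controls for 24 of the 70 members, against 6.19% of all genes, and in 21 of the 24 the segment was immunoglobulin. No member had all ADQ libraries below all controls (1.07% of all genes).

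Summed over a chain, heavy and kappa RNA was high in ADQ 1 to 4 and lowest in ADQ 5. The 93 heavy chain segments summed to 43.7, 104, 91.1, 92.2 and 153 CPM in controls 1 to 5, and to 665, 354, 299.6, 418 and 31.6 in ADQ 1 to 5. The 87 kappa segments summed to 49.6, 87.7, 59.9, 103 and 207 CPM in controls 1 to 5, and to 721, 342, 259, 371 and 14.9 in ADQ 1 to 5. In both chains 4 ADQ libraries exceeded the highest control and the other was below the lowest. The 7 lambda segments showed a wider spread, from 1.08 to 14.7 CPM in control and from 1.21 (ADQ 5) to 83.8 (ADQ 1) in ADQ; here control 1 was lowest, and ADQ 2 (16.1 CPM) was close to control 5 (14.7). The ratio of group means, on the log2 scale, was 1.87 for heavy, 1.75 for kappa and 1.92 for lambda. Sums over members are given without a test because the members were chosen with earlier results known.

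The T cell receptor chains divided the libraries in another way. The 38 alpha segments summed to 3.69, 2.17, 2.79, 3.51 and 10.1 CPM in controls 1 to 5, and to 18.7, 17.4, 11.1, 12.9 and 11.6 in ADQ 1 to 5. The 27 beta segments summed to 4.72, 3.85, 2.54, 5.00 and 22.9 CPM in controls 1 to 5, and to 35.3, 31.3, 17.4, 19.6 and 16.7 in ADQ 1 to 5. ADQ 5 was close to the other ADQ libraries here, and control 5 lay within the ADQ range for beta and just under it for alpha. The log2 ratio of means was 1.69 for alpha and 1.62 for beta, and without control 5 that for beta was 2.58. The 9 gamma segments summed to 0.987 to 4.198 CPM in control and 3.05 to 5.52 in ADQ (log2 ratio 1.01), and the 3 delta segments to 0.596 to 0.956 and 0.696 to 1.06 (0.41).

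**Figure D2:**
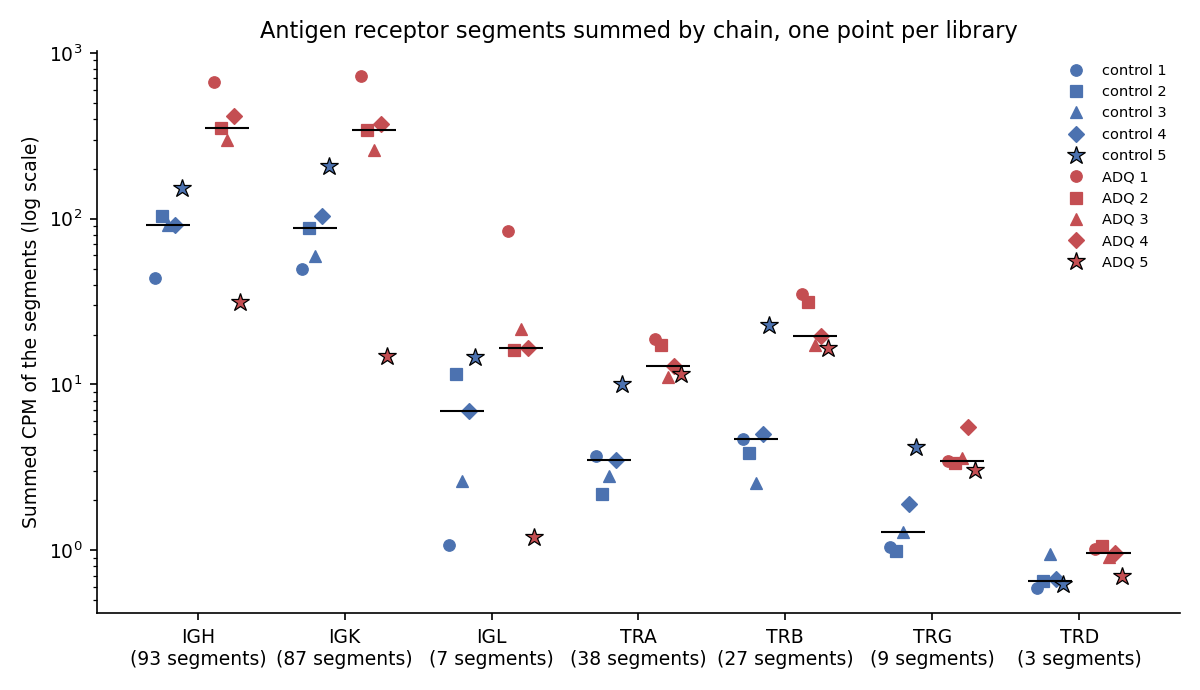
Summed CPM (log axis) of the members of each chain in each library, with a line at each group's median; stars mark control 5 and ADQ 5. In the heavy and kappa chains ADQ 5 (31.6 and 14.9 CPM) lies below every control, and in the beta chain control 5 (22.9 CPM) lies among the ADQ libraries.

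Among the heavy chain constant regions, Igha had the largest fold change of the 5 tested. Igha encodes the constant region of IgA, the antibody class of mucosal surfaces and secretions. Its level was 21.8, 59.8, 23.4, 42.4 and 55.9 CPM in controls 1 to 5 and 377, 236, 195, 307 and 5.96 in ADQ 1 to 5. ADQ 1 to 4 were each more than every control, and ADQ 5 was below all of them. The log2 fold change was 2.46 (SE 0.85, n = 5 each), which did not pass (edgeR adjusted p = 0.268). With all libraries it passed narrowly with DESeq2 (adjusted p = 0.0476) but not with voom and quality weights (0.259). Without ADQ 5, which was singled out by this very measure, the edgeR adjusted p was 0.0123, so that value is no independent support.

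Ighm, the mu constant region carried by naive B cells and IgM plasma cells, showed no such spread. It was at 13.7, 23.2, 25.9, 17.7 and 26.8 CPM in controls 1 to 5 and at 31.9, 27.9, 26.97, 20.3 and 21.7 in ADQ 1 to 5. ADQ 5 was within the range of the other libraries for Ighm. The log2 fold change of 0.26 (SE 0.18) did not pass (edgeR adjusted p = 0.527). Ighd, the delta constant region, which is spliced from the same primary transcript as Ighm, was at 0.229 to 2.18 CPM in control and 1.04 to 2.29 in ADQ (log2 fold change 1.05, SE 0.54, adjusted p = 0.402).

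The gamma constant regions were high in single libraries rather than in a group. Ighg2c (IgG2c) was at 35.3 CPM in control 5 and 0.642 to 3.26 in the other controls; in ADQ it was at 85.3 in ADQ 1 and 1.33 to 13.4 in the rest. Ighg2b (IgG2b) ran from 0.138 to 9.98 CPM in control and from 0.0464 to 59.7 in ADQ, with ADQ 1 highest. Their log2 fold changes, 1.49 (SE 1.47, adjusted p = 0.673) and 1.78 (SE 1.63, adjusted p = 0.647), were -0.08 and -0.39 without ADQ 1. Ighg1 (IgG1) was not tested: it was at 25.8 CPM in control 3 and 8.02 in control 4, at 4.22 in ADQ 3 and 2.53 in ADQ 4, and at 0 to 0.0831 in the remaining 6. Ighg3 (IgG3), also untested, was at 3.48 CPM in ADQ 2 and 1.32 in ADQ 1, and at 0 to 0.0687 elsewhere. A count of 0 allows up to 3 counts, or 0.0464 to 0.0687 CPM depending on the library, by counting error alone.

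Within a library, isotype shares do not depend on scaling. Igha took 56.0%, 68.8%, 30.2%, 53.0% and 43.5% of the heavy constant counts in controls 1 to 5, and 67.6%, 81.5%, 80.6%, 90.1% and 19.8% in ADQ 1 to 5. The 95% Wilson interval in ADQ 5, from 1944 counts, was 18.1% to 21.6%, and such intervals cover counting error only. Thus 3 ADQ libraries had an Igha share above every control, ADQ 1 lay inside the control range, and ADQ 5 was lowest of all. Ighm took 20.9% to 35.1% in control, 5.73% to 11.2% in ADQ 1 to 4 and 72.02% in ADQ 5. The 4 gamma regions together took 3.97% to 35.4% in control and 3.36% to 26.3% in ADQ, with control 3 (Ighg1), control 5 (Ighg2c) and ADQ 1 (Ighg2b and Ighg2c) highest. Per kilobase of exon the median Igha share was 47.2% in control and 72.9% in ADQ.

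**Figure D3:**
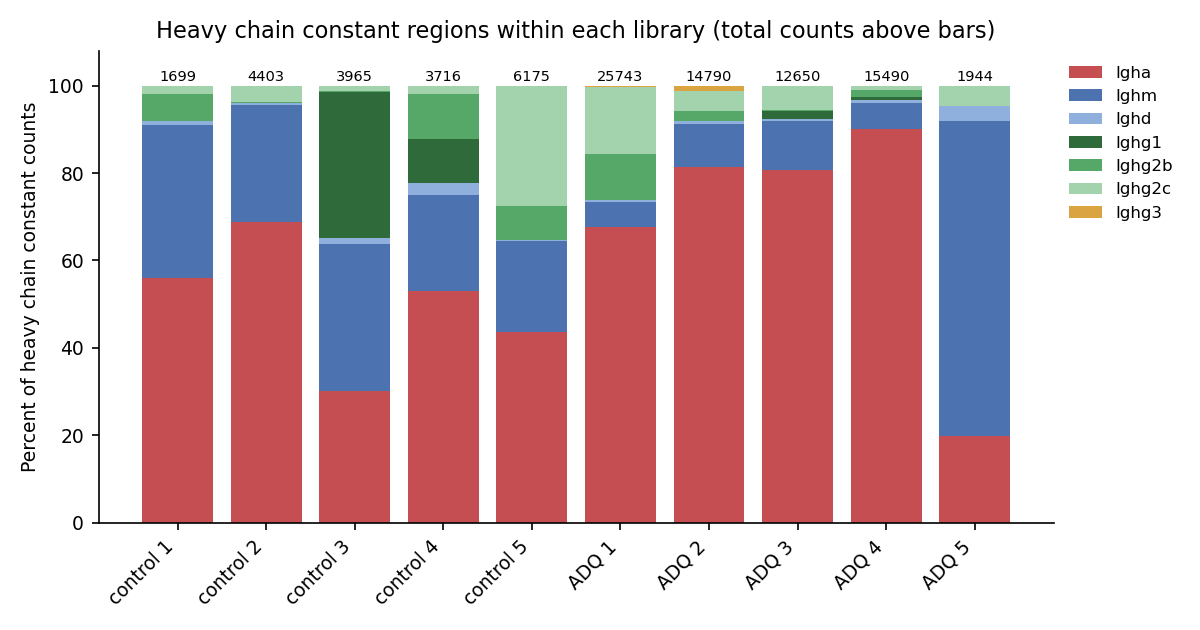
Percent of heavy chain constant region counts (vertical axis) given by each isotype gene in each library, with the total count above the bar. Igha makes up 67.6% to 90.1% in ADQ 1 to 4 and 19.8% in ADQ 5, where Ighm makes up 72.02%; Ighg1 is prominent in control 3 and Ighg2c in control 5.

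Of the light chain constant regions, Igkc and the lambda region Iglc1 divided the libraries as Igha did. Igkc, the single kappa constant region, was at 34.0, 58.7, 40.8, 70.8 and 134 CPM in controls 1 to 5 and at 497, 244, 174, 255 and 9.92 in ADQ 1 to 5. As with Igha, ADQ 1 to 4 were above every control and ADQ 5 below. For Igkc the log2 fold change was 1.80 (SE 0.83, n = 5 each, edgeR adjusted p = 0.382), with adjusted p of 0.109 to 0.573 when single libraries were left out, and 0.0102 without both control 5 and ADQ 5. Control 5 was the highest control for Igkc and ADQ 5 the lowest library, so this last value is no independent support.

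The lambda constant regions differed from one another. Iglc1 was at 0.298, 2.55, 1.31, 0.647 and 6.51 CPM in controls 1 to 5 and at 43.5, 7.63, 10.5, 7.56 and 0.232 in ADQ 1 to 5 (log2 fold change 2.61, SE 1.21, adjusted p = 0.386). As for Igkc, ADQ 1 to 4 were above every control and ADQ 5 below. Iglc2 was highest in 2 controls, with 4.01 CPM in control 2 and 2.72 in control 4, against 0.166 to 1.17 in the other 8 libraries (log2 fold change -0.86, SE 0.86, adjusted p = 0.675). Iglc3, 96.2% identical to Iglc2 over the coding part, ran from 0.0229 to 0.755 CPM in control and from 0.263 to 0.844 in ADQ (log2 fold change 0.86, adjusted p = 0.554). The V segments Iglv1 and Iglv2 peaked in the same libraries as constant regions they join. Iglv1, which joins to Iglc1 or Iglc3, was highest in ADQ 1 (1631 counts), as Iglc1 was (2010). Iglv2, which joins to Iglc2, was highest in control 2 (146 counts), as Iglc2 was (203). Iglv1 and Iglv2 are 96.9% identical over the coding part, so the division of reads between them is uncertain. Lambda made up 1.59% to 10.4% of light constant counts in control and 3.33% to 8.56% in ADQ, so the groups overlapped.

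Within the heavy chain and within the kappa chain, a J segment can join to many different V segments. Of the 10 immunoglobulin J members, 7 were tested, and all 7 had a log2 fold change above 0. Ighj2 was at 0.0229, 0.276, 0.0975, 0.0216 and 0.457 CPM in controls 1 to 5 and at 2.94, 1.29, 1.14, 2.00 and 0.0619 in ADQ 1 to 5 (log2 fold change 3.05, SE 0.92, edgeR adjusted p = 0.182). ADQ 1 to 4 were above every control. The same held for Ighj1 (log2 fold change 2.58, adjusted p = 0.268) and Ighj4 (2.09, adjusted p = 0.239). In the kappa chain it held for Igkj1 (2.05, adjusted p = 0.210) and Igkj4 (2.28, adjusted p = 0.244). It did not hold for Igkj2 (0.89, adjusted p = 0.744) or Igkj5 (1.02, adjusted p = 0.553). Igkj3, the kappa J printed above without the motif, had 19 counts in all libraries together, against 367 to 474 for each of the other kappa J segments.

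V segments with many counts differed from library to library. Among 114 V segments with at least 100 counts in all, 47 had more than 50% of their scaled level in 1 library; that library was an ADQ library for 40 of them (ADQ 1 for 24) and a control for 7. In 5, more than 90% lay in ADQ 1: Ighv1-52, Ighv1-75, Igkv1-88, Igkv14-100 and Igkv4-79, named here after their values were seen. Igkv14-100 had 1125 of its 1131 counts in ADQ 1. None of the 9 beta V segments of that depth had more than 50% in 1 library.

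By counts over all libraries the leading kappa V segments were Igkv1-110, Igkv1-117 and Igkv9-120. Igkv1-110 and Igkv1-117 are 97.2% identical over the coding part, so the division of reads between them is uncertain. Igkv1-110 was at 0.275, 3.26, 0.156, 1.19 and 3.78 CPM in controls 1 to 5 and at 5.67, 4.72, 10.2, 7.49 and 0 in ADQ 1 to 5. ADQ 1 to 4 were above every control, and the 0 in ADQ 5 allows up to 0.0464 CPM by counting error (log2 fold change 1.69, SE 1.20, adjusted p = 0.549). Igkv1-117 also had ADQ 1 to 4 above every control and ADQ 5 lowest, at 0.275 to 4.45 CPM in control, 4.597 to 9.25 in ADQ 1 to 4 and 0.0310 in ADQ 5 (log2 fold change 2.00, SE 1.11, adjusted p = 0.452). Igkv9-120 reached 22.3 CPM in ADQ 1 and 2.18 in control 1, with 1.78 to 3.19 in ADQ 2 to 4 and at most 0.234 in the remaining 5 libraries (log2 fold change 3.57, SE 1.61, adjusted p = 0.372).

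The leading heavy V segments were Ighv1-64, Ighv9-3 and Ighv5-6. Ighv1-64 was at 15.2 CPM in ADQ 2 and 7.94 in ADQ 1, at 1.70 in control 5, and at 0 to 1.93 elsewhere (log2 fold change 3.70, SE 1.71, adjusted p = 0.384). Ighv9-3 was at 2.77, 3.60, 5.68 and 9.25 CPM in ADQ 1 to 4, 0 in ADQ 5 and 0 to 0.894 in control (log2 fold change 3.94, SE 1.31, adjusted p = 0.248). Ighv5-6 was highest in control 3, where it took 319 of 653 heavy V counts (48.9%, 95% Wilson interval 45.04% to 52.7%). Control 3 was also the library with the highest Ighg1. Its log2 fold change was -0.16 (SE 1.64, adjusted p = 0.974).

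Each library had its own leading V segment in the kappa chain (named here after its counts were seen). The leaders were Igkv8-21 (19.2%), Igkv12-41 (21.7%), Igkv14-126 (21.5%), Igkv6-13 (18.4%) and Igkv17-121 (24.9%) of kappa V counts in controls 1 to 5. In ADQ 1 to 4 they were Igkv14-100 (11.4%), Igkv1-117 (9.98%), Igkv1-110 (12.5%) and Igkv6-32 (13.9%). In ADQ 5, Igkv1-135 took 159 of 302 counts (52.6%, 95% Wilson interval 47.0% to 58.2%). The leading share was thus 18.4% to 24.9% in control, lower in ADQ 1 to 4 and highest in ADQ 5.

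Igkv1-135 itself was not particular to ADQ 5. It was at 0.0458, 0.0395, 0.293, 1.88 and 1.41 CPM in controls 1 to 5 and at 3.98, 2.27, 4.71, 3.03 and 2.46 in ADQ 1 to 5. Every ADQ library was above every control, and ADQ 5 had a level like that of the other ADQ libraries although its kappa sum was the lowest of all. The log2 fold change was 2.16 (SE 0.86, edgeR adjusted p = 0.312). In the heavy chain of ADQ 5 the leader was Ighv1-39, with 31 of 85 counts (36.5%, 95% Wilson interval 27.03% to 47.1%), again at a level like those of ADQ 1 to 4. The segments whose groups separated completely in the kappa and heavy chains include the leaders of ADQ 5. Complete separation requires ADQ 5 to lie above every control, and ADQ 5 had few kappa and heavy V counts. This overlap is therefore in part built into the choice of segments and is a description.

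**Figure D4:**
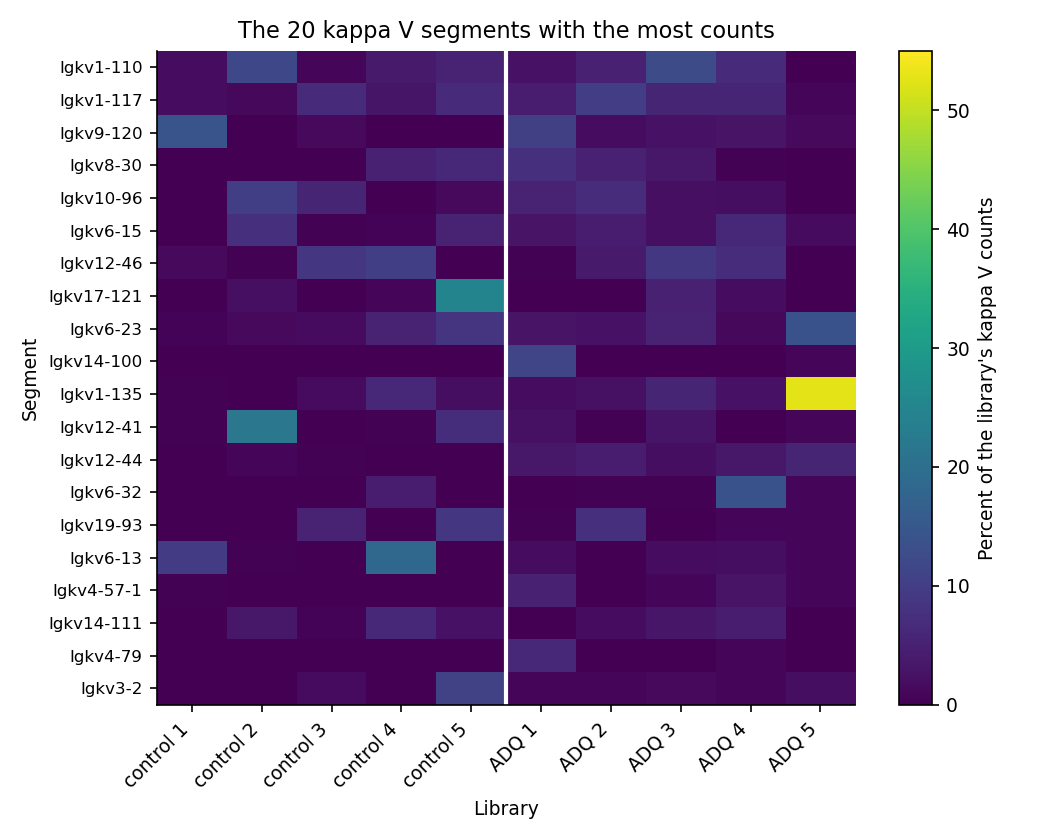
Share of each library's kappa V counts (colour, percent) given by the 20 kappa V segments with the most counts, libraries in columns. Single bright cells differ between libraries, such as Igkv17-121 in control 5 (24.9%) and Igkv1-135 in ADQ 5 (52.6%).

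The number of V segments in use was counted as those with at least 1 count and as an effective number, which is the number of equally used segments that would give the same concentration of counts (inverse Simpson index). In the kappa chain the effective number was 8.36, 9.29, 8.84, 13.7 and 9.07 in controls 1 to 5 and 19.8, 22.7, 21.2, 19.996 and 3.32 in ADQ 1 to 5. ADQ 1 to 4 were all above the controls and ADQ 5 below them. Kappa V segments with a count numbered 32 to 46 of 81 in control, 63 to 69 in ADQ 1 to 4 and 29 in ADQ 5. The 81 were chosen by summed count, so segments of libraries with many kappa V counts entered more easily. The libraries with more segments also had more kappa V counts (667 to 3309 in control, 4284 to 9869 in ADQ 1 to 4, 302 in ADQ 5), and the part of depth in these numbers was not tested. For heavy V segments the effective number overlapped, at 3.70 to 17.1 in control and 4.29 to 23.4 in ADQ.

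Of the T cell receptor constant regions, Trac separated the groups. Trac, the only alpha constant region, was at 2.54, 1.78, 2.07, 2.48 and 8.29 CPM in controls 1 to 5 and at 14.9, 13.6, 9.27, 9.998 and 9.66 in ADQ 1 to 5. Every ADQ library was above every control, and control 5 came nearest. The log2 fold change was 1.74 (SE 0.41, n = 5 each), which missed the threshold (edgeR adjusted p = 0.0930). It passed with DESeq2 (adjusted p = 0.00572), with voom and quality weights (0.00132), with library size alone (0.0489) and without control 5 (2.84e-05; log2 fold change 2.37). Control 5 was singled out by its Trac level, so this last value is no independent support.

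The beta chain has a pair of constant regions. Their coding sequences are 518 bases long and differ at 23 positions (95.6% identity). A stretch of 120 bases, after the first 300, is printed to show how alike they are, with capitals at the 7 differing bases; those first 300 bases hold 1 further difference. On GRCm38 they lie at chr6:41538218-41539881 (Trbc1) and chr6:41546730-41548352 (Trbc2), both on the plus strand.

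Trbc1: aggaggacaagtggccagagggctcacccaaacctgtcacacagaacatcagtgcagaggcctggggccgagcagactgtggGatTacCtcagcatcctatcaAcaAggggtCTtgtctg
Trbc2: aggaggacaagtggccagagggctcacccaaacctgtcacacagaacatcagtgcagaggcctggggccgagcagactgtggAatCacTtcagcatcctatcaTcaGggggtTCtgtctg

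With so few differences the division of reads between them is uncertain, and their levels are best read together. Trbc1 was at 1.28, 0.691, 1.01, 1.25 and 4.90 CPM in controls 1 to 5 and at 7.14, 7.92, 3.74, 4.37 and 4.94 in ADQ 1 to 5 (log2 fold change 1.62, SE 0.49, edgeR adjusted p = 0.179). Trbc2 was at 2.41, 2.43, 1.15, 2.59 and 10.4 CPM in controls 1 to 5 and at 17.3, 14.9, 8.13, 10.4 and 7.91 in ADQ 1 to 5 (1.63, SE 0.56, adjusted p = 0.259). In both, control 5 lay inside the ADQ range and the other controls below it. With all libraries both passed with voom and quality weights (adjusted p = 0.00973 and 0.0153), and neither passed with DESeq2 (0.0692 and 0.0976). Without control 5 both passed in edgeR (adjusted p = 5.00e-04 and 8.13e-04), but control 5 was singled out by these levels. Trbc2 took 53.2% to 77.8% of beta constant counts in control and 61.6% to 70.7% in ADQ, so the groups overlapped.

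Alpha and beta V and J segments had few counts. No alpha V or J segment passed the low-count filter. The alpha V segments with the most counts were Trav14-1 (107 in all, 12 of them in control 5 and 0 in the other controls), Trav13-5 (79) and Trav12-2 (69). Trav13-5 was as frequent in control as in ADQ, with 2 to 15 counts per library in control and 4 to 14 in ADQ. The leading alpha J, Traj27, had 38 counts in all, and the leading beta J, Trbj2-7, had 34. Traj18, the J segment of the receptor of invariant natural killer T cells, had 2 counts in control 3, none in the other controls and 2 to 6 in each ADQ library; it is named here after its counts were seen, and none of these counts is far from the 3 that a 0 allows.

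Of 17 beta V members, 7 were tested, all with a log2 fold change above 0, and Trbv2 was the 1 that passed. Trbv16, with the most counts, was at 3.96 and 2.11 CPM in ADQ 1 and ADQ 2, at 1.31 in control 5, and at 0.198 to 0.402 in ADQ 3 to 5 (log2 fold change 2.15, SE 1.25, adjusted p = 0.467). The other 4 controls were at 0 to 0.118 CPM. Trbv15 was highest in control 5 (1.496 CPM, 72 counts), at 0.216 to 0.877 in ADQ and at 0 to 0.0395 in the other controls (log2 fold change 0.71, SE 1.26, adjusted p = 0.825). Without control 5 its log2 fold change was 5.31 (adjusted p = 0.00675). Control 5 had the highest Trbv15 level of all, so that value is no independent support. The effective number of beta V segments was 7.73 to 10.6 in control and 5.36 to 11.98 in ADQ, with only 15 to 54 counts in controls 1 to 4.

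Gamma and delta segments were scarce and differed less. Trgc2 was at 0.458, 0.0395, 0.527, 0.690 and 2.89 CPM in controls 1 to 5 and at 1.54, 2.33, 2.16, 3.32 and 2.15 in ADQ 1 to 5 (log2 fold change 1.32, SE 0.71, edgeR adjusted p = 0.433). Once more control 5 lay among the ADQ libraries, and without it the adjusted p was 0.0407. Control 5 had the highest Trgc2 level of the controls, so that value is no independent support. Trgc1 (log2 fold change 0.07, SE 0.56, adjusted p = 0.964), Trgc4 (0.12, SE 0.50, adjusted p = 0.932) and Trdc, the delta constant region (0.40, SE 0.47, adjusted p = 0.727), did not pass. Trgc3 was not tested (0 to 0.0862 CPM in control, 0 to 0.238 in ADQ). Trgc1, Trgc2 and Trgc3 are 94.0% to 96.7% identical in coding sequence, so reads may be divided among them.

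Of the V segments, Trgv2 was at 0.0197 to 0.625 CPM in control and 0.449 to 0.769 in ADQ (log2 fold change 0.97, SE 0.55, adjusted p = 0.445). Trdv4 was at 0.138 to 0.663 and 0.274 to 0.549 CPM (0.14, SE 0.43, adjusted p = 0.903). Trgv3, Trgv6, Trdv1 and the J segment Trgj2 had 12 to 24 counts each in all libraries together. Gamma and delta constant regions took 11.7% to 24.9% of T cell receptor constant counts in control and 7.11% to 15.5% in ADQ.

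Genes that work with these receptors were counted in the same test. In plasma cells, Jchain encodes the joining chain that links IgA and IgM into polymers. It was at 3.48, 5.72, 4.95, 5.35 and 8.79 CPM in controls 1 to 5 and at 49.0, 33.1, 28.4, 36.9 and 0.805 in ADQ 1 to 5, with ADQ 1 to 4 above every control and ADQ 5 below, as for Igha and Igkc (log2 fold change 2.39, SE 0.80, edgeR adjusted p = 0.259). Of the 11 tested genes in the plasma cell list, Jchain among them, none passed; 5 had an unadjusted p under 0.05, 7 lay above 0 on the log2 scale (median 0.15). Those 5 were Jchain, Pou2af1 (1.28, adjusted p = 0.282), Tnfrsf13b (0.52, adjusted p = 0.258, with every ADQ library above every control), Prdm1 (0.50, adjusted p = 0.305) and Eaf2 (-0.91, adjusted p = 0.230). Xbp1, a factor of the secretory programme, was at 175 to 193 CPM in control and 170.3 to 185 in ADQ (-0.05, adjusted p = 0.8004). Mzb1, a chaperone of antibody secretion, was at most 0.313 CPM in any library, and Tnfrsf17 (BCMA, a plasma cell survival receptor) was at 0.166 to 0.848 CPM in control and 0.0619 to 0.346 in ADQ (adjusted p = 0.508).

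B cell genes were low. None of 13 tested passed (median log2 fold change 0.24). Cd79a, part of the B cell receptor complex, was at 0.917 to 2.93 CPM in control and 1.41 to 3.25 in ADQ (log2 fold change 0.31, adjusted p = 0.707). Ms4a1 (CD20) was at 0.217 to 0.776 and 0.191 to 0.724 (0.43, adjusted p = 0.672). In ADQ 5 both were within the range of the other libraries. The genes of recombination, Rag1, Rag2 and Dntt, were at 0 to 0.118 CPM, and in the list of recombination and switching genes none of 6 tested passed. In the germinal centre list, 1 of 6 rose: Gcsam, a membrane adaptor of germinal centre B cells, from 0.273 to 0.431 CPM in control to 1.06 to 2.45 in ADQ (log2 fold change 2.25, SE 0.30, edgeR adjusted p = 0.00296).

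Among 8 tested genes of immunoglobulin transport and Fc receptors, Fcgr4, an activating receptor for IgG on myeloid cells, rose from 9.33 to 17.0 CPM in control to 17.6 to 25.7 in ADQ (log2 fold change 0.85, SE 0.16, edgeR adjusted p = 0.0228), and none fell. The call for Fcgr4 was lost without control 1, control 2, control 4, ADQ 2, ADQ 3 or ADQ 4 (adjusted p = 0.0551 to 0.0712). Pigr, which carries IgA across epithelium, was at 0.0395 to 0.7103 CPM in control and 0 to 0.254 in ADQ (-2.23, adjusted p = 0.285). In the macrophage and microglia list 2 of 10 rose and none fell. Aif1, a calcium-binding protein of macrophages and microglia, was at 21.9 to 38.0 CPM in control and 42.7 to 65.0 in ADQ (log2 fold change 0.92, SE 0.14, edgeR adjusted p = 0.00756). Adgre1 (F4/80) was at 42.8 to 56.7 and 63.6 to 80.4 CPM (0.47, SE 0.10, adjusted p = 0.0476), a call lost when any single library was left out (adjusted p = 0.0549 to 0.144) and with RLE scaling (0.0538).

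The CD3 proteins carry T cell receptors to the surface and pass on their signal. Cd3e was at 1.33, 0.829, 1.25, 3.21 and 7.94 CPM in controls 1 to 5 and at 12.2, 11.5, 9.69, 8.59 and 7.24 in ADQ 1 to 5 (log2 fold change 1.76, edgeR adjusted p = 0.235). Control 5 lay inside the ADQ range, as it did for Trbc1 and Trbc2, while for Trac it was just under it. Cd3d (1.73, adjusted p = 0.186), Cd3g (1.86, adjusted p = 0.218) and Cd247 (1.11, adjusted p = 0.283) did not pass. All 13 genes of the CD3 and signalling list had a log2 fold change above 0, with a median of 1.57, and 1 passed: Lcp2 (SLP-76, an adaptor below the receptor, also used in myeloid cells), at 5.35 to 8.42 CPM in control and 12.7 to 17.7 in ADQ (1.02, SE 0.14, adjusted p = 0.00508). Lcp2, Gcsam and Aif1 passed without any 1 library. Of 10 T cell coreceptor and identity genes none passed, and all were above 0 (median 1.09). The NK cell list had 0 of 9 and the innate-like T cell list 0 of 7 that passed. No gene passed in the lists of tissue other than lymphocytes and macrophages. In the fat cell list all 7 tested genes were below 0 (median log2 fold change -1.91, 5 with an unadjusted p under 0.05), and in cornea and conjunctiva all 5 (median -8.23, 5 with an unadjusted p under 0.05). In the rod list all 8 were above 0 (median 1.25) and in the red blood cell list all 6 (median 0.18), none with an unadjusted p under 0.05. Below 0 were 7 of 8 skeletal muscle genes (median -0.49), 9 of 12 RPE genes (-0.15), 6 of 8 endothelial genes (-0.12), 4 of 6 lymph node and follicle genes (-0.32) and all 4 lacrimal gland genes (-0.14). The part of these differences in the receptor results was not tested.

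**Figure D5:**
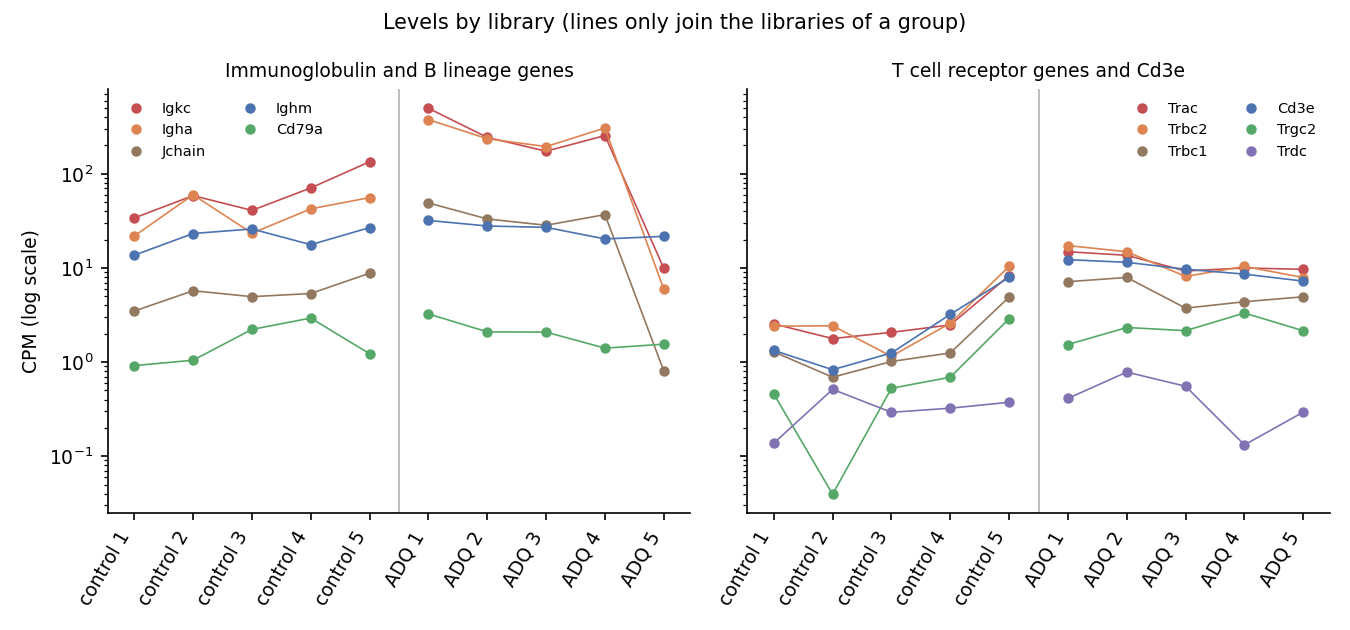
CPM (log axis) by library of immunoglobulin and B lineage genes (left) and of T cell receptor genes with Cd3e (right); lines only join libraries of 1 group. Igkc, Igha and Jchain are lowest in ADQ 5 while Ighm and Cd79a are not, and in the T cell receptor panel control 5 lies inside the ADQ range for Trbc1, Trbc2, Trgc2 and Cd3e and just under it for Trac (8.29 against 9.27 CPM).

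The authors' deposited table lists 25 of the members, and 5 pass its adjusted p of 0.05, where 5.42% of its 15860 genes do. All 5 are higher in ADQ. The authors' deposited table gives Trac a log2 fold change of 2.12 (adjusted p = 0.00112) and Trbc2 of 2.00 (adjusted p = 0.00656). In the authors' deposited table the values are 2.15 for Trbc1 (adjusted p = 0.00734), 3.65 for Igkv1-135 (adjusted p = 0.0218) and 3.12 for Trgc2 (adjusted p = 0.0283). Igha (adjusted p = 0.114) and Igkc (adjusted p = 0.154) do not pass in the authors' deposited table. It does not list Ighv1-39, Igkv12-44 or Trbv2.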

How the data were processed

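RNA sequencing counts from 5 control and 5 ADQ samples were analysed. Extraction used TRIzol and NucleoSpin columns and cDNA was made with SMARTer amplification, per the labels' protocols. No molecular identifiers are stated, so intervals cover counting error only. The submitters' processing notes name GRCm38, bcl2fastq, DRAGEN, edgeR and limma without versions or roles. The authors deposited raw counts per gene (55774 entries, of which 287 repeats of an identifier were dropped). Their second deposited table gives log2 CPM for each library, log2 fold changes and p-values, raw and adjusted, for 15860 genes.

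Genes passing edgeR 4.0.16 filterByExpr (minimum count 10, minimum total 15; R 4.3.3, limma 3.58.1) were scaled by TMM and tested with a robust quasi-likelihood fit on group, Benjamini-Hochberg adjusted over 20684 genes at 0.05. Standard errors were taken as |log2 fold change| divided by the root of F. The smallest chi-square between any 2 libraries was 33.9 per degree of freedom, so none was a duplicate. Coordinates and sequences of all 264 members come from GENCODE M21. DESeq2 1.42.0, voom, other scalings and filters, each library left out and the replicate number as a block were tried as alternatives.

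The members, the lists of related genes and the alternatives were chosen with earlier results of these data known. Named are all constant regions, members that passed, the 3 V segments and the J segment with the most counts in each chain, genes of the lists with the smallest p, Jchain, Cd79a, Ms4a1 and the CD3 genes; other names were added after values were seen. Pseudogene segments were left out of the members. Some genes that this rule or the lists hold are not reported here.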

Additional observations from a re-analysis of the deposited data

Results flagged for a closer look

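In 68 groups of 5 libraries (chain sums, constant regions and the always named genes), 10 held a library whose gap to its nearest neighbour, on a log scale, was more than 0.71 of the group's range, Dixon's 95% value for 5 samples. Chance flags about 1 in 20 such groups, and these groups share genes and libraries, so they are not independent.

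ADQ 5 stood apart in 5 of them, always on the low side. The IGH sum was 31.6 CPM in ADQ 5, where ADQ 1 to 4 had 299.6 to 665. The IGK sum was 14.9 CPM against 259 to 721. Igkc was at 9.92 CPM against 174 to 497, Igha at 5.96 against 195 to 377, and Jchain, the linker of IgA and IgM, at 0.805 against 28.4 to 49.0.

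Control 5 stood apart in 2, both of the T cell receptor. Trac was at 8.29 CPM in control 5 against 1.78 to 2.54 in the other controls, and Cd247, the CD3 zeta chain, at 3.37 against 0.691 to 0.779.

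The other 3 concern low levels. The TRD sum was 0.956 CPM in control 3 against 0.596 to 0.668 in the other controls. Ighg3 had 0 counts in control 2 against 0.0416 to 0.0687 CPM in the other controls, which are 2 or 3 counts each. Ms4a1 (CD20) was at 0.191 CPM in ADQ 3 against 0.519 to 0.724 in the other ADQ libraries.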

How the results depend on the processing

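The number of segments called, 3 and all higher, stayed within 2 to 4 under 12 of the 20 alternatives, and no alternative called a segment lower. It was 0 with a filter of 1 CPM in 5 libraries, where 25 members were tested and 6 had an unadjusted p under 0.05. That filter removed all 3 segments called in the main test, so this 0 does not retest their calls. The number called was 8 with voom and quality weights and 23 with DESeq2 without that filter. Leaving out single libraries gave 0 (without ADQ 2; 22 of 80 tested members had an unadjusted p under 0.05) to 13 (without ADQ 5). Leaving out control 5 and ADQ 5 together, chosen after seeing the data and by the levels it is meant to check, gave 25. Of the related genes, 5 were called; the number was 12 (6 higher, 6 lower) with the fit that is not robust, 27 with voom, 25 (16 higher, 9 lower) with DESeq2, 3 (without control 1, ADQ 2, ADQ 3 or ADQ 4) to 31 (without control 5) with 1 library left out and 30 without both control 5 and ADQ 5. Over all genes the count of 171 became 728 with voom, 773 with DESeq2, 78 to 357 with 1 library left out (96 without control 1, 78 without control 4, 81, 99 and 87 without ADQ 2, 3 and 4, and 357 without control 5), and 365 without both. Chain sums kept their direction under every scaling, member threshold and library left out; the log2 ratio of means for the beta chain ran from 1.40 to 2.58 when single libraries were left out, the highest without control 5, and that for lambda from 0.91 (without ADQ 1) to 2.33 (without control 5). The causes of these changes were not tested.

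With the replicate number as a block, 4 segments, 14 related genes (10 higher, 4 lower) and 694 genes in all were called; Igkv12-44 was not among the 4 (adjusted p = 0.0639), nor among the 4 called with no low-count filter (0.115). The numbers were not taken as pairs: the deviations of same-numbered libraries correlated at 0.03, 0.03, 0.16, 0.01 and -0.11, and only replicate 3 correlated best with its own number.

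Depth limits which members could be tested: 47 of 217 V, 7 of 27 J and 16 of 19 constant segments passed the low-count filter. How reads of near-identical segments were divided is not given.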

Other observations

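The 208 pseudogene segments summed to 0.596, 0.434, 0.507, 0.582 and 1.21 CPM in controls 1 to 5 and to 1.34, 1.08, 1.60, 0.681 and 0.310 in ADQ 1 to 5. The 230 segments under the threshold summed to 0.316 to 1.27 CPM in control and 1.07 to 1.95 in ADQ, with ADQ 5 (1.07 CPM) close to ADQ 4 (1.08).

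Without Ighm and Ighd, the remaining 185 immunoglobulin members summed to 80.4, 180.0, 126, 182 and 347 CPM in controls 1 to 5 and to 1436, 682, 552, 783 and 25.0 in ADQ 1 to 5. Cd8a ranged over 1.09 to 1.83 CPM in controls 1 to 4 and 3.09 to 5.10 in ADQ, with control 5 at 4.59 (log2 fold change 0.92, edgeR adjusted p = 0.303). Cd8a and Cd8b1, which mark cytotoxic T cells, are named here after their values were seen, as are Nkg7 and Cd6. Cd8b1 ranged over 1.33 to 2.01 CPM in controls 1 to 4 and 3.20 to 6.99 in ADQ, with control 5 at 7.88 (log2 fold change 0.92, edgeR adjusted p = 0.416). Nkg7, a granule protein of NK cells and cytotoxic T cells, ranged over 3.81 to 9.23 and 25.4 to 41.0 CPM, with control 5 at 32.5 (1.44, adjusted p = 0.336). Cd6, a T cell surface receptor, ranged over 0.474 to 1.38 and 6.79 to 11.4 CPM, with control 5 at 8.90 (1.96, adjusted p = 0.332).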
